A study of Homo sapiens with 18 samples.

Results

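SH-SY5Y is an established human neuroblastoma line of sympathetic origin that stops dividing and grows neurites when it is taken from serum into neuronal medium with retinoic acid. The comparison described here is day 18 of that differentiation against day 0 in cells carrying a lentiviral wild-type ZNHIT3 construct, over 6 of the 18 libraries of the study, 3 per day. Its members are the genes with a mean of at least 1 FPKM (a read density corrected for the length of the transcript and for how many fragments a library mapped) over all 18 libraries, 13785 of the 26372 gene symbols in the deposited table. A further 4960 symbols were at 0 in every library.

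Day 0 cells are labelled as the ZNHIT3-WT line before differentiation, and the cells were kept in minimum essential medium with fetal bovine serum. Day 18 cells were the same line after 18 days in serum-free neurobasal medium with B27 supplement, BDNF, KCl, dibutyryl cyclic AMP (db-cAMP) and all-trans retinoic acid. Both groups carried the construct, which derives from the FUGW lentiviral plasmid, and the other 12 libraries came from cells given the C14R or the deletion form of ZNHIT3 at the same days. No group was held for 18 days without the added factors, so the factors, the loss of serum, the change of medium and time in culture cannot be told apart. The labels do not say whether libraries of a group came from separate cultures, so the p-values measure only the spread between these libraries, which may be technical. The labels likewise do not say when after infection the day 0 cells were collected.

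Retinoic acid enters the nucleus and binds RAR receptors, which sit on DNA paired with RXR. It switches on its own degrading enzymes of the CYP26 family, the binding protein CRABP2 and the receptor RARB. Cyclic AMP acts through protein kinase A on CREB, which binds the cAMP response element in promoters. BDNF signals through the receptor TrkB, encoded by NTRK2, and raised potassium depolarises the cells and opens voltage-gated calcium channels. Neuroblastoma cells that leave the cell cycle under such treatment are known to repress MYC family genes, ID genes and the mitotic program.

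The 6 libraries separated by day before any other feature. The first principal component held 91.3% of the variance of the 6 libraries, Pearson correlations across genes were 0.990 to 0.993 within a day and 0.884 to 0.890 between days, and across genes these values are a description only. Absolute depth is unknown because the table holds FPKM. Steps in the low values put the relative depth of the libraries at 70.7% to 75.8% of the deepest at day 0 and at 84.7% to 100% at day 18. Small noncoding RNA genes held 55.7% to 80.1% of the summed FPKM at day 0 and 47.3% to 60.5% at day 18, with the first replicate of each day highest. Ribosomal protein genes held 27.3% to 27.6% of the remaining FPKM at day 0 and 17.1% to 18.4% at day 18.

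ZNHIT3, the delivered gene and an assembly factor of box C/D small nucleolar ribonucleoproteins, was at 542, 541 and 531 FPKM at day 0 and at 1193, 1164 and 1103 FPKM at day 18. All day 18 libraries lay above all day 0 libraries, a log2 change of 1.10 (SE 0.07, adjusted p = 9.6e-11 by limma). The FPKM does not separate delivered from endogenous transcripts.

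Of the 13785 genes tested, 9946 (72.2%) changed at an adjusted p under 0.05 (limma on log2(FPKM + 1), Benjamini-Hochberg over all genes), 5260 upward (38.2%) and 4686 downward (34%). The changes were mostly small. The median absolute log2 change was 0.38, and 1002 genes (7.27%) rose and 936 (6.79%) fell by at least 1 on the log2 scale. At 3 or more, 47 genes rose and 51 fell. The balance of directions depends on the scaling: 52.9% of called genes were higher as deposited and 68.7% when small RNA genes were left out and the rest rescaled, since that shifts the median log2 change over all genes from 0.03 to 0.21. None of the 1912 strong changes tested under that scaling, called with a log2 change of at least 1 as deposited, lost its call or direction. Long noncoding genes (551 tested) rose in 36.3% and fell in 22.7%, and protein-coding genes (12086) in 38.5% and 35.3%. Because 1 FPKM is added before the log, changes of genes near or below that level come out smaller than their ratio of FPKM.

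**Figure D1:**
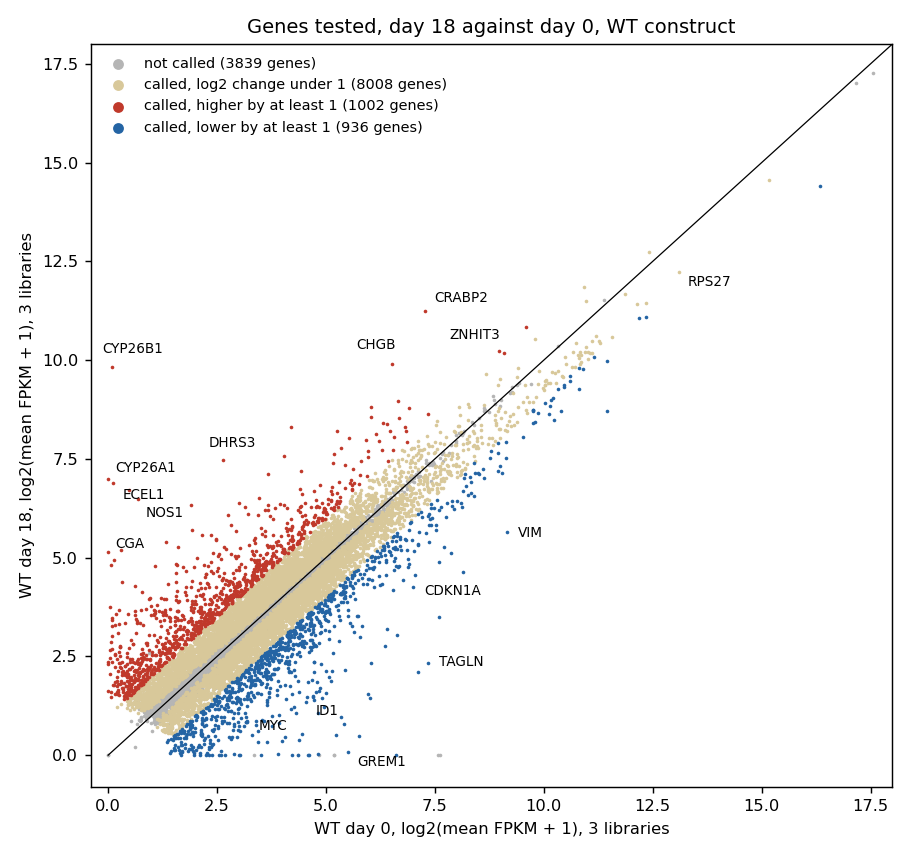
Mean expression of each gene tested at day 0 (horizontal axis) and day 18 (vertical axis), both as log2(mean FPKM + 1) over 3 WT libraries, with the line of equal level; colours give the limma call. CYP26B1, at 0.0574 and 899 FPKM, lies farthest above the line, and the 936 strongly lower genes include GREM1, ID1 and TAGLN.

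The retinoic acid pathway held the largest rise in the table. CYP26B1, an enzyme that degrades retinoic acid, was at 0.0493, 0.0471 and 0.0759 FPKM at day 0 and at 913, 902 and 882 FPKM at day 18 (log2 change 9.73, SE 0.05, adjusted p = 6.5e-25). Its relative CYP26A1 was listed at 0 in all day 0 libraries and at 134, 120 and 122 FPKM at day 18. CRABP2, which carries retinoic acid to its receptors, went from a mean of 155 to 2403 FPKM, the largest gain in FPKM of any gene outside the small RNAs. DHRS3, which reduces retinaldehyde back to retinol, went from 5.4, 5.48 and 4.71 FPKM to 177, 177 and 176 FPKM. In each of these genes the days were apart by many times the spread between libraries.

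Receptors and suppliers of the pathway moved in both directions. RARB rose from a mean of 7.86 to 77.3 FPKM (log2 change 3.15) and RARA by 0.46, while RXRA fell from 3.55 to 1.19 FPKM and RARG fell by 0.21 on the log2 scale. RDH10, which makes retinaldehyde from retinol, fell from 17.7, 15.8 and 16.2 FPKM to 5.92, 6.44 and 5.45 FPKM, and STRA6, the retinol importer, from 18.3 to 7.94 FPKM on average. CRABP1 rose from 39.7 to 219 FPKM. Of the 19 genes tested in the retinoic acid list, 11 were higher and 6 lower, with a median log2 change of 0.53 against 0.03 over all genes, and the 6 that rose by at least 1 were the degrading enzymes, binding proteins, DHRS3 and RARB. ALDH1A3, which makes retinoic acid from retinaldehyde, rose from 5.81 to 12 FPKM.

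RARB is shown by sequence because it is the classical direct target of the retinoic acid receptor and its promoter holds the element. A DR5 element, a direct repeat of the receptor's recognition word with a spacer, was searched by its usual consensus on both strands of RefSeq promoter windows (GRCh38.p14, 250 bases before to 50 after the first start listed per gene). It occurred in 22 of 27305 promoters (0.0806%) and in 4 of the 10152 tested genes that have a window. These 4 were RARB, PRSS27 (log2 change 0.75), ATXN1L (0.46) and PHF8 (-0.29). The stretch of chr3:25428185-25428251 (plus strand), upstream of the start, is given with the element in capitals.
RARB: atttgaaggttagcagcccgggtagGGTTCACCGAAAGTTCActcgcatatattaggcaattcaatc
The element ran from base -53 to base -37 before the start. A match describes the letters of the window and is neither a binding site nor a cause.

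HOX genes, which set position along the body axis and are known to answer to retinoic acid, rose in the C and D clusters that the line already expressed. Of 39 HOX genes in the table, 12 passed the level filter, 11 of these were higher and none lower, while HOXC5 was at 3.22 and 2.75 FPKM and not called. HOXD9 went from 15.6, 17.3 and 16.7 FPKM to 50.2, 46.6 and 41.9 FPKM (log2 change 1.43) and HOXD8 from 31.6 to 67.5 FPKM on average. HOXD1 went from 0.612 to 3.08 FPKM. None of the 11 HOXA genes or the 10 HOXB genes was tested: their highest library in this line was at 0.0695 FPKM for HOXA and 0.362 FPKM for HOXB. Genes that passed the filter through day 18 alone could only be higher, so the count over tested members does not speak for the 27 that were not tested. The TALE cofactors MEIS1 (22.5 to 57.1 FPKM) and PBX3 (20.6 to 47.6 FPKM), which bind DNA with HOX proteins, rose, and TGIF2, a repressor of the same family, fell from 16.2 to 5.56 FPKM.

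**Figure D2:**
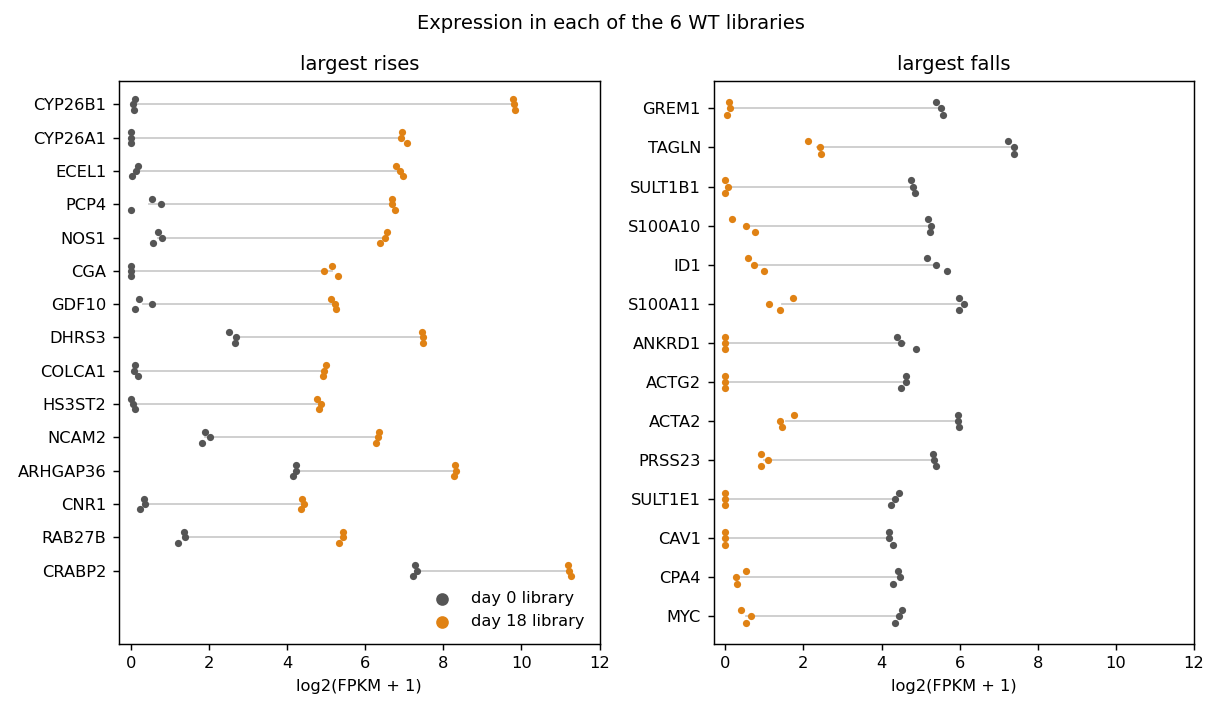
The largest rises and falls in WT, as log2(FPKM + 1) on the horizontal axis; grey points are the 3 day 0 libraries, orange points the 3 day 18 libraries, and the line joins the means. Genes were eligible only if their 6 libraries split by day without overlap, so the gap between days follows from the choice. CYP26A1, CGA, ANKRD1, ACTG2, SULT1E1 and CAV1 lie at 0 in every library of 1 day.

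Beyond the retinoic acid genes, the largest rises were in secreted, neuronal and signalling genes, most of them close to silent at day 0. ECEL1, a neuronal peptidase, went from 0.0255, 0.0973 and 0.141 FPKM to 125, 117 and 111 FPKM, and PCP4, a calmodulin regulator, from 0, 0.695 and 0.459 FPKM to 107, 102 and 101 FPKM. NOS1, neuronal nitric oxide synthase, rose from 0.615 ± 0.133 to 88.8 ± 6.01 FPKM (SD, n = 3). GDF10, a TGF-beta family ligand, rose from 0.232 to 35.7 FPKM and NCAM2, a neural adhesion molecule, from 2.76 to 79.0 FPKM. CNR1, the cannabinoid receptor of neurons, went from 0.239 to 19.9 FPKM, and ARHGAP36, which is known to restrain protein kinase A, from 17.4 to 314 FPKM. All 30 of the largest rises and falls were called in the same direction in the C14R and in the deletion line.

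By a fixed limit, 10 genes were switched on (at most 0.1 FPKM in every day 0 library and at least 5 FPKM in every day 18 library) and 10 switched off by the reverse. Those on were CYP26B1, CYP26A1, CGA, HS3ST2, CARTPT, CACNA2D3, TMEM133, TENM1, COL17A1 and SMOC1. Those off were the small nuclear RNA gene RNVU1-15 and GREM1, SULT1B1, ANKRD1, ACTG2, SULT1E1, CAV1, MMP1, ANXA1 and SERPINB7. CGA, the shared alpha subunit of the glycoprotein hormones, was listed at 0 in all day 0 libraries and at 38.2, 30 and 34.8 FPKM at day 18. CARTPT, a neuropeptide precursor, was at 0, 0 and 0.0983 FPKM and then at 17, 9.98 and 10.5 FPKM. HS3ST2, a heparan sulfate sulfotransferase of neurons, went from 0.0796, 0.0381 and 0 FPKM to 27.1, 28.5 and 26.1 FPKM.

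These 3 switched-on genes are shown by sequence because each holds the palindromic cAMP response element TGACGTCA upstream of its start, and they had the largest rises among genes with that element. The stretches are chr6:87095198-87095273 (minus strand), chr16:22814091-22814148 (plus strand) and chr5:71719107-71719164 (plus strand) of GRCh38.p14, from RefSeq, with the element in capitals.
CGA: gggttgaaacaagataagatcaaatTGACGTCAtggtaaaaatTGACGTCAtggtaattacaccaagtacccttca
HS3ST2: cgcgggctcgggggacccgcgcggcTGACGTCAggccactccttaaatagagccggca
CARTPT: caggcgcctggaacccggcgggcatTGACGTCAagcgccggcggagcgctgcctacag
CGA holds 2 copies, starting at bases -142 and -124. The element was in 347 of the 10152 tested genes with a window (3.42%), in 4.46% of genes that rose by at least 1 and in 4.10% of those that fell by at least 1. Of the 347 genes, 137 were higher (39.5%), 115 lower (33.1%) and 95 not called, near the 38.2% and 34% of all genes tested. Other carriers that rose were SLC18A2, VGF, TUBB2A, GABBR1 and PDE7B.

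In the list of cAMP response genes and phosphodiesterases more genes rose than fell, with a modest median change. In that list 19 of 31 genes tested were higher and 5 lower, with a median log2 change of 0.38. Of all genes tested 38.2% were higher and 34% lower. The 7 members not tested included NR4A2, PPARGC1A and SIK1, all under 1 FPKM on average on both days. CREM, a CREB family factor with a cAMP-inducible repressor form, went from 9.64, 10.1 and 10.2 FPKM to 28.8, 27 and 27.8 FPKM. The phosphodiesterases PDE10A (6.66 to 24.9 FPKM), PDE3A (10.7 to 25.8 FPKM), PDE4D (5.93 to 14.8 FPKM) and PDE7B (3.01 to 8.16 FPKM), which break cyclic nucleotides down, rose. GNAS, the stimulatory G protein alpha subunit, had the second largest gain in FPKM outside the small RNAs, from 769 ± 8.42 to 1825 ± 61.8 FPKM (SD, n = 3). Immediate early genes, which respond within minutes to calcium and growth factors, had 5 of 18 higher and 10 lower. DUSP6 rose from 22.1 to 81.9 FPKM and FOSL1 fell from 6.97 to 0.671 FPKM, while EGR1 was at 8.87 and 8.37 FPKM and not called.

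Receptors for the added factor and its relatives diverged. NTRK2, the BDNF receptor, went from 6.76, 6.84 and 7.64 FPKM to 77.3, 85.5 and 86.3 FPKM (log2 change 3.38). NTRK3, the receptor for neurotrophin-3, fell from 2.04 to 0.851 FPKM. RET, the GDNF family receptor, rose from 83.1 to 332 FPKM and ALK, a receptor mutated in neuroblastoma, from 35.4 to 72.6 FPKM. NGFR, the shared neurotrophin receptor, was at 7.90 and 8.07 FPKM and not called. In the list of these receptors and ligands 6 of 15 were higher and 6 lower, a split at the background of all genes. NTRK2 and RET had the largest rises of the list on the log2 scale.

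**Figure D3:**
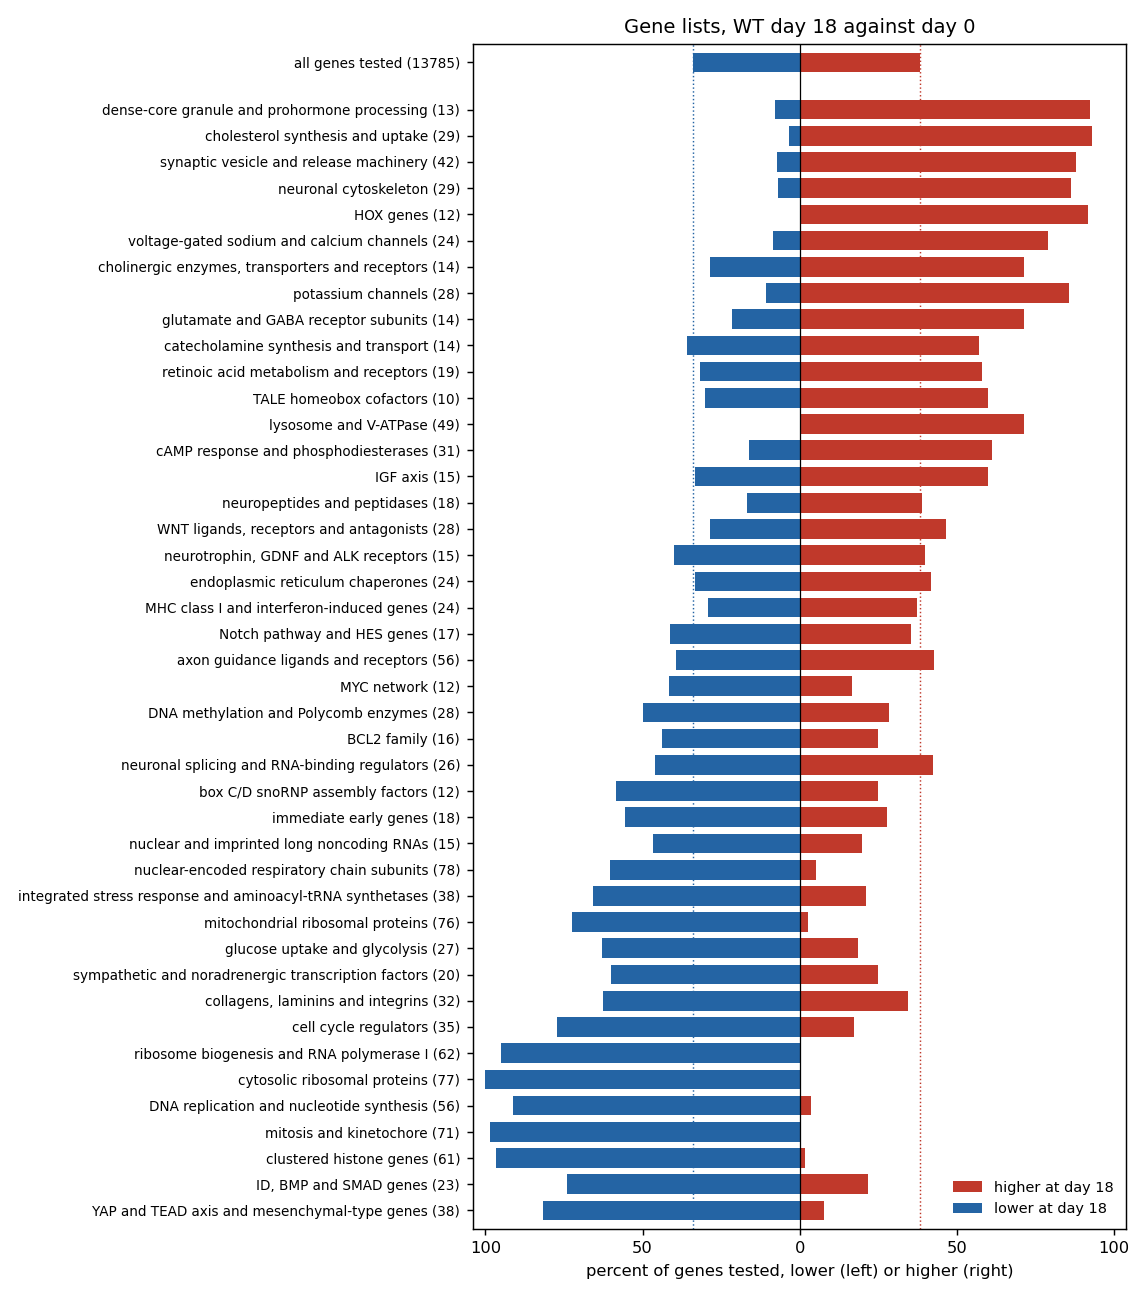
Share of the genes tested in each gene list that was higher (right, red) or lower (left, blue) at day 18 by limma, in percent, ordered by the median log2 change, with all genes tested at the top and as dotted lines. Neuronal, secretory and cholesterol lists lie at the top, and cell division, histone, ribosome and mesenchymal-type lists at the bottom.

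Structural genes of the neuron rose broadly. Of 29 neuronal cytoskeleton genes, 25 were higher and 2 lower, with a median log2 change of 1.10. MAPT, the microtubule protein tau, went from 5.76, 6.11 and 6.17 FPKM to 57.9, 55.7 and 53 FPKM. GAP43, a growth cone protein, rose from 45.1 to 261 FPKM, DPYSL3 from 64.4 to 374 FPKM, the neurofilament gene NEFL from 61.4 to 209 FPKM and TUBA1A, a tubulin of young neurons, from 503 to 1190 FPKM. NEFH and PRPH were not called. VIM, the vimentin filament of dividing precursors and mesenchymal cells, went the other way, from 575, 562 and 559 FPKM to 50.1, 47.8 and 50.0 FPKM (log2 change -3.49). NES, nestin, another filament of precursors, rose slightly, from 82.0 to 106 FPKM.

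Genes of the release apparatus also rose. Of 42 synaptic vesicle genes, 37 were higher and 3 lower, with a median log2 change of 1.17. RAB27B, which docks secretory vesicles, went from 1.32, 1.61 and 1.59 FPKM to 39.2, 42.2 and 42.3 FPKM. The vesicle protein SYP rose from 14.4 to 80.8 FPKM and the fusion protein SNAP25 from 88.2 to 295 FPKM, while RPH3A, a RAB3 effector, fell from 18.1 to 3.43 FPKM. Among dense-core granule genes 12 of 13 were higher, with a median log2 change of 1.36. CHGB, a granin packed with hormones and amines, went from 80.1, 93.9 and 98.4 FPKM to 944, 982 and 962 FPKM. SCG2 rose from 119 to 444 FPKM and VGF from 102 to 371 FPKM, but CHGA, the best known granin, fell from 121 to 92.6 FPKM. The granins thus changed unequally, by 3.40 for CHGB and -0.38 for CHGA on the log2 scale.

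Some peptide hormone genes rose. NPY rose from 100 to 502 FPKM, GAL (galanin) from 37.4 to 296 FPKM and TAC3 from 0.732 to 8.73 FPKM. In the whole list of neuropeptides and peptidases 7 of 18 tested were higher, 3 lower and 8 not called, with a median log2 change of 0.19. The share higher was near that of all genes tested, of which 38.2% were higher and 34% lower. MME, neprilysin, a peptidase that clears peptides at the cell surface, fell from a mean of 14.8 to 0.274 FPKM.

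In the catecholamine list 8 of 14 genes tested were higher and 5 lower, with a median log2 change of 0.67, and its members moved in opposite directions. DBH, which makes noradrenaline from dopamine, went from 60.3, 66.4 and 65.5 FPKM to 476, 446 and 412 FPKM. The vesicular amine transporters SLC18A2 (4.27 to 23.6 FPKM) and SLC18A1 (6.90 to 32.2 FPKM) and the decarboxylase DDC (47.1 to 92.9 FPKM) rose. SLC6A2, the noradrenaline reuptake transporter, fell from 51.2, 48.3 and 47.8 FPKM to 7.36, 7.77 and 7.93 FPKM. TH, the rate-limiting enzyme of the pathway, stayed under the level filter, at 0, 0.0414 and 0.0804 FPKM at day 0 and 0.851, 0.289 and 0.466 FPKM at day 18. In the cholinergic list 10 of 14 were higher and 4 lower. ACHE, which degrades acetylcholine, went from 1.44, 1.02 and 0.878 FPKM to 29.6, 24.4 and 25.7 FPKM, and SLC18A3, the vesicular acetylcholine transporter, from 6.62 to 13.4 FPKM. SLC5A7, the choline transporter, fell from 18.2, 21 and 19.3 FPKM to 2.62, 2.70 and 2.67 FPKM.

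Muscarinic receptors changed places: CHRM3 rose from 3.87 to 26.9 FPKM and CHRM4 from 0.224 to 2.65 FPKM, while CHRM2 fell from 24.3 to 9.82 FPKM and CHRM1 from 2.81 to 1.60 FPKM. The ganglionic nicotinic subunits CHRNA3 (62.1 to 125 FPKM), CHRNB4 (9.98 to 25.3 FPKM) and CHRNA5 (17.5 to 33.4 FPKM) rose.

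Ion channel genes, which carry excitability, were mostly higher. Of 28 potassium channel genes tested 24 were higher and 3 lower, and of 24 sodium and calcium channel genes 19 were higher and 2 lower, with median log2 changes of 0.79 and 0.94. CACNA1C, the L-type calcium channel, rose from a mean of 1.67 to 12 FPKM, and CACNA2D3, a calcium channel auxiliary subunit, from 0.0561 to 10.2 FPKM. KCNK3, a background potassium channel, rose from 3.87 to 19.2 FPKM. KCNMA1, the large-conductance calcium-activated potassium channel, fell from 12.3 to 2.77 FPKM. Of 14 glutamate and GABA receptor subunits tested 10 were higher. GRIK4 rose from 0.313 to 9.12 FPKM and GABBR1 from 6.03 to 32.9 FPKM, while the presynaptic receptors GRM7 and GRM8 fell to 1.39 and 1.52 FPKM. These lists lean on low values: 30 of 58 potassium channel genes and 29 of 43 receptor subunits were not tested, and with a mean of at least 5 FPKM the higher counts were 13 and 4.

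Axon guidance genes rose and fell in near equal number, 24 and 22 of 56 as deposited. This split was near that of all genes tested, of which 38.2% were higher and 34% lower. The counts were 27 and 19 with small RNA genes left out, and 21 and 24 with median-of-ratios scaling. NRP1, a semaphorin and VEGF coreceptor, went from 29.9, 32.1 and 30.5 FPKM to 1.93, 2.00 and 2.06 FPKM, and EPHA2 fell from 12.2 to 2.25 FPKM. RGMB, a BMP coreceptor that guides axons, rose from 10.5 to 47.4 FPKM and SLIT1 from 2.17 to 9.73 FPKM.

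Cell identity genes of the sympathetic lineage were reordered. GATA2 fell from 98.8 to 26.1 FPKM, SIX3 from 45.6 to 9.24 FPKM and TBX2 from 23.4 to 5.10 FPKM. The lineage factor PHOX2A rose from 92.8 to 149 FPKM, and HAND2 (278 and 273 FPKM) and ISL1 (57.4 and 61.0 FPKM) were not called. Of the 20 factors tested 5 were higher and 12 lower. The noradrenergic marker list, checked for the label of the line, summed to 1026 to 1075 FPKM at day 0 and 2240 to 2355 FPKM at day 18, with 11 and 10 of 12 markers at 1 FPKM or more and TH below 1 on both days.

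Markers of other cell types were checked in the same libraries. Fibroblast and mesenchymal markers summed to 315 to 333 FPKM at day 0 and 132 to 138 FPKM at day 18: COL3A1 fell from 191 to 28.6 FPKM, PDGFRA was higher at day 18 (60.8 to 63.2 FPKM against 28.9 to 33.6 FPKM), and POSTN was at 0 in 5 of 6 libraries. The Schwann cell and glia list summed to 4.19 to 4.61 FPKM and 10.4 to 11.2 FPKM, S100B being its highest member at day 18 and SOX10, GFAP, FOXD3 and CDH19 under 0.5 FPKM throughout. The blood and endothelial list summed to at most 6.53 FPKM, almost all CD68, with HBB and HBA1 at 0. Epithelial markers summed to 34.6 to 44.5 FPKM at day 0 and 6.68 to 7.74 FPKM at day 18, most of it KRT18 at day 0. The part of these markers in the results was not tested. In such bulk libraries fewer cells of a type and less RNA per cell cannot be told apart.

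**Figure D4:**
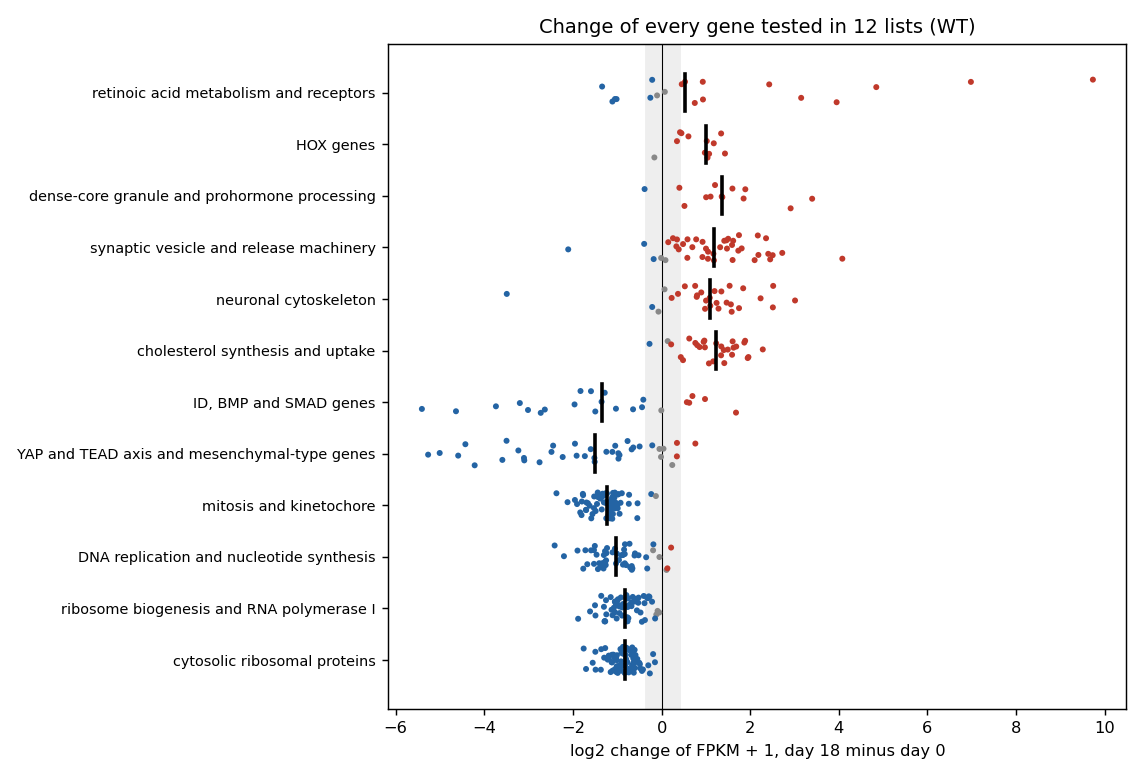
Log2 change of FPKM + 1 (day 18 minus day 0) of every gene tested in 12 lists; red and blue points passed limma upward and downward, grey points did not, the black bar is the list median, and the shaded band holds all genes tested between their lower and upper quartile (-0.35 to 0.41). All 77 cytosolic ribosomal protein genes lie left of 0.

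Mesenchymal-type, contractile and adhesion genes held most of the largest falls. The actin-binding protein TAGLN went from 168, 166 and 150 FPKM to 4.46, 4.38 and 3.36 FPKM. The smooth muscle actin ACTA2 fell from 61.6 to 1.93 FPKM. ANKRD1, a YAP target, and CAV1, the coat protein of caveolae, were at 23.4 and 17.6 FPKM on average at day 0 and listed at 0 in all day 18 libraries. Of 38 genes tested on the YAP and mesenchymal-type list 31 were lower and 3 higher, with a median log2 change of -1.51. TWIST2 and ZEB1 were among the 3 that rose, and TEAD1, the DNA-binding partner of YAP, was not called at 35.5 and 35.2 FPKM.

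Matrix genes split by chain. The basement membrane collagens COL4A1 (26.4 to 2.04 FPKM) and COL4A2 (34.4 to 3.40 FPKM) fell together, and the fibronectin receptor subunit ITGA5 fell from 4.30 to 0.227 FPKM. ITGA7, a laminin receptor subunit, went from 0.592, 0.561 and 0.544 FPKM to 7.95, 7.62 and 6.83 FPKM, and LAMB2 rose from 5.94 to 17.1 FPKM. In the whole list of collagens, laminins and integrins 11 of 32 were higher and 20 lower.

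Targets and regulators of BMP and TGF-beta signalling fell together. The ID genes encode inhibitors of neuronal basic helix-loop-helix factors and are direct BMP targets. ID1 went from 49.9, 41.1 and 34.7 FPKM to 0.973, 0.678 and 0.490 FPKM, ID3 fell from 30.2 to 1.33 FPKM, ID2 from 83.8 to 8.19 FPKM and ID4 from 9.57 to 0.701 FPKM. The inhibitory SMAD6 (3.61 to 0.301 FPKM) and SMAD7 (7.11 to 1.68 FPKM) and the decoy receptor BAMBI (17.2 to 1.26 FPKM), themselves targets of the pathway, also fell. GREM1, a secreted BMP antagonist, went from 46.4, 45.1 and 41.2 FPKM to 0.0377, 0.0902 and 0.0644 FPKM. Of 23 genes tested 17 were lower and 5 higher. The 5 were BMP7, INHBA, BMPR2, TGFBR1 and BMPR1B, which encode ligands or receptors.

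In the Notch list 6 of 17 were higher and 7 lower as deposited, and 10 and 5 with small RNA genes left out, so its balance depends on the scaling. DNER, a Notch ligand of neurons, rose from 1.93 to 27.4 FPKM and NOTCH1 fell from 3.73 to 0.928 FPKM. In the WNT list 13 of 28 were higher and 8 lower, not far from the 38.2% and 34% of all genes. With small RNA genes left out they were 16 and 6, and with median-of-ratios scaling 13 and 10. The antagonists DKK3 (31.9 to 88.7 FPKM) and FRZB (2.53 to 7.93 FPKM) rose. In the insulin-like growth factor axis IGF2 went from 13.7, 15.9 and 16.3 FPKM to 220, 175 and 176 FPKM, and IGFBP3, which binds it outside the cell, from 72.4, 63.4 and 58.7 FPKM to 4.21, 3.92 and 3.99 FPKM. IGF2BP2, an RNA-binding protein named for IGF2, fell from 2.95 to 0.0366 FPKM.

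Division genes fell while most stayed expressed. Of 71 mitosis and kinetochore genes 70 were lower and none higher (ZWILCH, at 21.5 and 19.6 FPKM, was not called), with a median log2 change of -1.23. Of 56 DNA replication genes 51 were lower and 2 higher, with a median of -1.02. The 2 were GINS4 and ORC4, with log2 changes of 0.21 and 0.13. ORC4 lost its call with median-of-ratios scaling (0.08, adjusted p = 0.12 by limma) and without WT day 0 replicate 1 or WT day 18 replicate 2 or 3, and GINS4 without WT day 18 replicate 3. CDC20, the activator of the anaphase complex, went from 25.6, 24.6 and 25.8 FPKM to 4.17, 3.60 and 4.53 FPKM, and CCNB2, a mitotic cyclin, from 32.4 to 6.65 FPKM. TYMS, which makes thymidylate, went from 40.5, 39.6 and 34.7 FPKM to 6.52, 6.82 and 5.78 FPKM, and RRM2, a subunit of ribonucleotide reductase, from 51.8 to 10.5 FPKM. MKI67 and TOP2A, both marks of cycling cells, fell to 19.6 and 37.7 FPKM from 49.8 and 95.0 FPKM. The summed FPKM of the mitosis list went from 1703 to 673.

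Promoters of these genes are shown because shared elements are known to tie them together. The cell cycle homology region, TTTGAA, is bound by the DREAM and MuvB complexes at mitotic genes, and E2F factors bind sites such as TTTGGCGC or TTTCCCGC at replication genes. Members on 1 chromosome were left out of the choice of genes shown. Among the rest of the mitosis list, the 4 with the largest falls and a TTTGAA upstream of the start are CDC20 at chr1:43358891-43358946 (plus strand), CCNB2 at chr15:59105092-59105145 (plus strand), PLK1 at chr16:23678835-23678888 (plus strand) and BUB1B at chr15:40161021-40161068 (plus strand), with the element in capitals.
CDC20: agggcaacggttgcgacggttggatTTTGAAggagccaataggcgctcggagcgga
CCNB2: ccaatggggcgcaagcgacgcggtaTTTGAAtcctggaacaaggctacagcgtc
PLK1: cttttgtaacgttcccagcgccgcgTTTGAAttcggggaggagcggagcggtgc
BUB1B: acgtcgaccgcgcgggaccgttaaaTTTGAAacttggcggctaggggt
The 4 replication genes chosen in the same way for the E2F site are TYMS at chr18:657589-657646 (plus strand), PCNA at chr20:5126649-5126706 (minus strand), UHRF1 at chr19:4909462-4909500 (plus strand) and GINS2 at chr16:85688955-85689010 (minus strand), where the capitals are the site read on the opposite strand.
TYMS: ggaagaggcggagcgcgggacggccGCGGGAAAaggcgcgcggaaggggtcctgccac
PCNA: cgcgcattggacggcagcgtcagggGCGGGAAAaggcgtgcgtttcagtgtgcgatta
UHRF1: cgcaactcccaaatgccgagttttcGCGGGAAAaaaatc
GINS2: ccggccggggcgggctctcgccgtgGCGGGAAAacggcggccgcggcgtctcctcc
In CCNB2 and PLK1 the element starts at the same place, base -29. TTTGAA was in 38 of 58 mitosis promoters (65.5%), in 9.73% of tested genes with a window and in 15.4% of all windows. The E2F site was in 19 of 48 replication promoters (39.6%), in 3.71% of tested genes and in 2.31% of all windows. Among genes that fell by at least 1, 17.9% held TTTGAA and 6.98% an E2F site, against 8.93% and 2.09% of genes that rose by at least 1. The elements were searched on both strands.

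**Figure D5:**
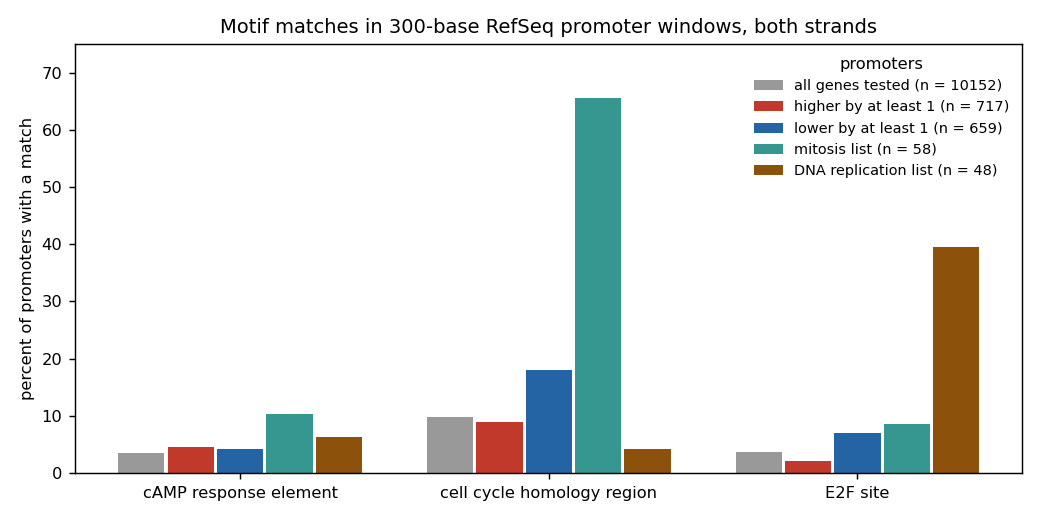
Percent of RefSeq promoter windows (250 bases before to 50 after the start) that hold each element (vertical axis), for all genes tested, for genes that rose or fell by at least 1 on the log2 scale and for the mitosis and DNA replication lists; n is the number of windows. TTTGAA stands at 65.5% in the mitosis list and the E2F site at 39.6% in the replication list, while the cAMP response element lies at 3.42% to 10.3% in the 5 sets.

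Regulators of the cycle moved in both directions. The cyclin-dependent kinase inhibitor CDKN1A (p21) fell from 126, 133 and 121 FPKM to 19, 18.1 and 16.8 FPKM, whereas CDKN2D (p19) rose from 2.86, 4.06 and 3.59 FPKM to 18.1, 14.1 and 15.6 FPKM and CDKN1B (p27) from 27.1 to 40.8 FPKM. CCND1, the G1 cyclin, fell from 170 to 55.6 FPKM, the mitotic driver FOXM1 from 25.9 to 7.19 FPKM and CDK4 from 74.2 to 34 FPKM, and CCNE1 was at 6.57 FPKM on both days and not called. Of 35 regulators tested 27 were lower and 6 higher.

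MDM2, a ubiquitin ligase, fell from 75.7, 74.3 and 75.2 FPKM to 18.0, 19.1 and 19.7 FPKM. The exonuclease AEN fell from 25.5 to 4.12 FPKM, and the death genes BBC3 and BAX from 10.3 and 94.8 FPKM to 1.94 and 31 FPKM. In the BCL2 family list 4 of 16 genes tested were higher and 7 lower as deposited, beside 38.2% and 34% of all genes. With small RNA genes left out the list had 6 higher and 5 lower. BNIP3L (43.2 to 65.8 FPKM) and BMF (4.22 to 6.45 FPKM) rose, and BCL2L1 and BCL2L2 were not called.

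MYC, the growth-driving transcription factor, was among the 15 largest falls, at 19.1, 20.9 and 22.2 FPKM on day 0 and 0.454, 0.583 and 0.318 FPKM on day 18. Its relative MYCN was low on both days (2.16, 2.56 and 3.57 FPKM, then 1.54, 0.727 and 0.927 FPKM) and fell. MNT and MXI1, repressors of the network, rose to 10.5 and 28.7 FPKM from 6.66 and 21.2 FPKM, and the partner MAX was at 31.1 and 31.6 FPKM and not called.

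Ribosome genes, which MYC is known to drive, fell as a body. All 77 cytosolic ribosomal protein genes tested were lower as deposited (73 with small RNA genes left out), while quantile normalization called 52 lower and 6 higher. Their summed FPKM went from 120741 to 67032 and their median log2 change was -0.83. RPS27 went from 8930, 8466 and 8999 FPKM to 5008, 4779 and 4626 FPKM, and RPLP0 from 1203, 1216 and 1195 FPKM to 380, 346 and 341 FPKM. Outside the small RNAs, the 8 largest losses in FPKM were all ribosomal protein genes. Single values are uncertain because these genes have many near-identical pseudogenes. Of 62 ribosome biogenesis genes 59 were lower and none higher, with a median of -0.82. FBL, the methyltransferase of box C/D ribonucleoproteins, went from 93.9, 90.3 and 95.3 FPKM to 30.5, 24.9 and 19.3 FPKM, and SNHG5, a host transcript of small nucleolar RNAs, fell from 339 to 92.9 FPKM.

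In the assembly machinery of box C/D ribonucleoproteins, where ZNHIT3 acts, 10 of 12 genes tested were called, ZNHIT3 included, beside 72.2% of all genes. RUVBL1 (77.6 to 47.0 FPKM) and RUVBL2 (68.4 to 35.9 FPKM), its helicase-like components, fell, RPAP3 rose from 14.6 to 18.0 FPKM, and HSP90AA1 and HSP90AB1 were not called. Of the 12 genes 3 were higher and 7 lower as deposited, and 5 and 3 with small RNA genes left out.

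Replication-dependent histone genes, whose transcripts lack a poly(A) tail and are kept by ribosomal RNA depletion, fell in 59 of 61 tested, with a median log2 change of -1.35 and a summed FPKM of 17162 at day 0 and 7671 at day 18. HIST1H2BK went from 113, 124 and 111 FPKM to 26.1, 29.2 and 23.2 FPKM. HIST1H1T rose from 2.79 to 5.83 FPKM, and 1 gene was not called. Histone genes are near-identical copies, so a single gene's value is uncertain. Of 28 DNA methylation and Polycomb enzymes 8 were higher and 14 lower as deposited, beside 38.2% and 34% of all genes. With small RNA genes left out the list had 13 higher and 11 lower. UHRF1 (27.9 to 9.16 FPKM), EZH2 (31.3 to 15.5 FPKM) and DNMT1 (32.8 to 18.3 FPKM) were among those lower as deposited.

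Sterol genes rose. Of 29 genes of cholesterol synthesis and uptake 27 were higher and 1 lower, with a median log2 change of 1.23 and a summed FPKM of 464 at day 0 and 1156 at day 18. The lower gene was PMVK (log2 change -0.27), whose call was lost with small RNA genes left out (-0.07, adjusted p = 0.54 by limma). HMGCS1, which starts the pathway, went from 15.8, 14.9 and 15.6 FPKM to 78.9, 79.1 and 78.8 FPKM. The controlling factor SREBF2 rose from 10.8 to 26.7 FPKM. The exporters ABCA1 and ABCG1 rose by less, to 5.20 and 6.44 FPKM from 3.60 and 3.10 FPKM. Serum, a source of sterol, was in the day 0 medium and not in the day 18 medium, and its part was not tested.

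Glycolysis moved the other way. LDHA, lactate dehydrogenase, went from 302, 309 and 302 FPKM to 103, 88.4 and 94.3 FPKM and the enolase ENO1 fell from 386 to 150 FPKM, whereas the neuronal enolase ENO2 went from 48.6, 49.5 and 50.3 FPKM to 105, 95.8 and 95.1 FPKM. In that list 17 of 27 were lower and 5 higher, and 15 and 10 with small RNA genes left out. Nuclear-encoded respiratory chain genes moved by less than 1 on the log2 scale in every case, 47 of 78 lower and 4 higher as deposited against 30 and 21 with small RNA genes left out. Mitochondrial ribosomal protein genes had 55 of 76 lower and 2 higher. Of 49 lysosome genes 35 were higher and none lower, with ATP6V0A1, a proton pump subunit of neurons, going from 17.7, 17.2 and 17 FPKM to 53.4, 52.2 and 51.3 FPKM.

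Protein synthesis and stress genes were mixed. DDIT3, a stress-induced transcription factor, rose from 7.72 to 21.9 FPKM, but of 38 genes of the integrated stress response and transfer RNA charging 25 were lower and 8 higher, SHMT2 among the lower (26.4 to 10.3 FPKM). Endoplasmic reticulum chaperones had 10 of 24 higher and 8 lower, near the 38.2% and 34% of all genes, none by 1 or more, and 14 and 5 with small RNA genes left out, with CALR falling from 338 to 230 FPKM and CANX rising from 147 to 212 FPKM. Interferon-related genes had 9 of 24 higher and 7 lower, close to all genes. IFI6 rose from 12.2 to 65.2 FPKM and IFITM2 fell from 22.6 to 1.78 FPKM.

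RNA-processing regulators were mixed as a list. PTBP1, the splicing repressor of non-neuronal cells, went from 67.7, 68.1 and 65.0 FPKM to 26, 27.1 and 22.5 FPKM, and its neuronal relative PTBP2 rose slightly, from 18.3 to 20.5 FPKM. CELF6 rose from 2.22 to 10.7 FPKM, ELAVL3 from 31 to 69.9 FPKM and NOVA1 from 5.94 to 12.7 FPKM. REST, the repressor of neuronal genes, fell from 20.2 to 15.0 FPKM. In the list 11 of 26 were higher and 12 lower, beside 38.2% and 34% of all genes tested. Of 15 nuclear and imprinted long noncoding RNAs 7 were lower and 3 higher, MIAT, a neuronal transcript, rising from 15.4 to 35.9 FPKM and PVT1, the neighbour of MYC, falling from 11.8 to 3.31 FPKM.

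Most WT calls were also made in the other lines. Of the 9946 genes called in WT, 9098 were called in the same direction in C14R, 9093 in the deletion line and 8682 (87.3%) in both. A test of the difference of the day effect from WT called no gene in C14R (limma, smallest adjusted p = 0.27, 790 genes at an unadjusted p under 0.05) and 2 in the deletion line, ZNHIT3 and STK19 (1014 at an unadjusted p under 0.05). These differences share the WT libraries. Counts of calls in each line do not show that the lines act alike.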

How the data were processed

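Total RNA from SH-SY5Y cells was depleted of ribosomal RNA and sequenced, per the labels' protocols. The authors deposited 1 table of FPKM values per gene symbol for 18 libraries. Per the submitters' processing notes the build was hg38 and TopHat2, STAR and Cufflinks 2.2.1 were used, with no role or order given. The annotation and strand setting are not given in the sources used here. No value column lacked a sample. Groups come from the labels.

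Values were taken as log2(FPKM + 1), and genes with a mean of at least 1 FPKM over 18 libraries were kept. One limma model (limma 3.58.1, R 4.3.3, moderated with a variance trend) with 6 group means over all 18 libraries (12 residual degrees of freedom) gave day 18 minus day 0 in WT, and the differences of that effect between lines, with Benjamini-Hochberg adjustment over all genes. A call is an adjusted p under 0.05. The model was tested on simulated data. The 44 gene lists, the 5 marker lists and the rule for members were chosen with earlier results of these data known, and lists are described by counts and medians beside those of all genes. Genes named are ZNHIT3, the 15 largest rises and falls among separated called genes outside small RNA families, the 8 largest gains and losses in FPKM, the 2 largest called rises and falls per list, the 8 highest switched genes per direction, genes that differ between lines, and other list members given with values. Genes overlapping others on either strand, such as ZNHIT3 and MYO19, and near-identical copies cannot be separated here. Promoter sequences are RefSeq windows of GRCh38.p14; 10152 of 13785 genes had one. Alternatives covered the pseudocount, the filter, 3 scalings, the 6 WT libraries alone, a replicate block, the variance model, library weights and leaving out each WT library, with 2 more added after seeing the data. Some genes and 1 list are not reported here.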

Additional observations from a re-analysis of the deposited data

Results flagged for a closer look

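The effect of differentiation differed from WT in 2 genes of the deletion line by an interaction test (limma, adjusted over all genes). STK19, a nuclear DNA-binding protein encoded in the major histocompatibility region, was at 3.09, 2.80 and 3.19 FPKM at day 0 and 0.313, 0 and 0 FPKM at day 18 in WT. Its log2 change was -1.88 in WT, -1.76 in C14R and 2.19 in the deletion line, a difference of 4.07 (SE 0.16, adjusted p = 1.9e-10) between the deletion line and WT. ZNHIT3, the delivered gene, changed by 1.10 in WT, 0.61 in C14R and -0.00484 in the deletion line, a difference of -1.10 (SE 0.09, adjusted p = 1.1e-05) between the deletion line and WT. Groups of 3 libraries are too small for a test of single outlying libraries, and none was made.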

How the results depend on the processing

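Of the 198 named genes, 3503 values under 18 alternative settings kept their direction and call, 24 kept the direction but lost the call, and none reversed. The lost calls fell on 6 genes, DPYSL4, PMVK, ORC4, GINS4, DUSP1 and PDE7A. Genes called numbered 7553 (mean of at least 5 FPKM) to 11597 (no filter). Of calls in the main analysis, 14 reversed with quantile normalization and 12 with small RNA genes left out, none of them with a log2 change of at least 1. The number of genes higher with log2 change of at least 1 was 667 with a mean of at least 5 FPKM, since fewer genes were tested.

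The median log2 change of all genes tested was 0.0157 without a filter, -0.000302 with a mean of at least 5 FPKM, -0.0204 with median-of-ratios scaling, -0.00500 with quantile normalization, 0.210 with small RNA genes left out, 0.0533 with ribosomal protein genes left out too (added after seeing the data), and 0.0209 to 0.0274 when a WT library was left out. Genes with day effect differing from WT in C14R numbered 1 with a pseudocount of 0.1, 1 with the replicate block, 4 with library weights and 2 without C14R day 18 replicate 1 (added after seeing the data). Genes with day effect differing from WT in deletion numbered 1 with a mean of at least 5 FPKM and 6 with library weights. The cause was not tested.

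Same-numbered WT libraries did not deviate together (r = 0.10, -0.07 and 0.08). These values show no pairing by number, but cannot tell whether same-numbered libraries shared a culture or batch. With the replicate block 9932 genes were called, 9860 of them shared with the main calls.

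Of the list counts, 1513 stayed within 1.5 times and 71 moved. With small RNA genes left out, counts higher went from 8 to 13 for Polycomb and DNA methylation enzymes and from 2 to 10 for mitochondrial ribosomal proteins, and counts lower from 6 to 3 for neurotrophin receptors. Notch genes higher fell from 6 to 3 without WT day 18 replicate 1. FPKM hides depth, which limits statements on genes below 1 FPKM.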

Other observations

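Genes outside the lists, chosen after their values were seen, add to the neuronal and surface changes. NR2F1, a nuclear receptor known to answer to retinoic acid, rose from 11.7 to 79.2 FPKM, and L1CAM, an axonal adhesion protein, from 28 to 113 FPKM. The axonal motor KIF5A rose from 11.7 to 72.8 FPKM, the axonal scaffold ANK2 from 20.2 to 106 FPKM and the autophagy protein GABARAPL1 from 4.84 to 33.0 FPKM. Each of these 5 genes separated the days without overlap and passed limma's test.

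Other genes chosen in the same way fell. VEGFC, a lymphatic growth factor, was at 5.01, 4.97 and 5.06 FPKM at day 0 and listed at 0 in all day 18 libraries, and HGF, hepatocyte growth factor, fell from 28.8 to 3.98 FPKM. EGFR fell from 9.55 to 0.806 FPKM, the chemokine CCL2 from 108 to 20.5 FPKM, the chemokine receptor CXCR4 from 35.6 to 8.56 FPKM and protein kinase C alpha, PRKCA, from 96.1 to 26.4 FPKM. The matrix genes ELN (42.3 to 3.45 FPKM), SPARC (102 to 26.5 FPKM) and MMP2 (137 to 39.2 FPKM) fell with them. Among long noncoding genes OLMALINC rose from 5.73 to 66.3 FPKM and PART1 from 0.533 to 18.5 FPKM, and MIR4435-2HG fell from 16 to 1.67 FPKM.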
